A study of Mus musculus with 32 samples.

Results

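The commitment of a cell to a new division is made in G1 by a small set of cyclins and cyclin-dependent kinases, and the mRNAs of 8 of them were followed here through young and aged marrow. The set comprised the D cyclin genes Ccnd1, Ccnd2 and Ccnd3, the genes of their kinases Cdk4 and Cdk6, the E cyclin genes Ccne1 and Ccne2 and the gene of their kinase Cdk2. They were taken by symbol from the table of raw gene counts, which held 24421 genes. Of 14154 genes that passed a filter on low counts and were tested, 8 were members, so no member was lost. RNA sequencing had been done on 8 fractions sorted from the marrow of female C57BL/6 mice, with no treatment or engineered allele named in the labels, at 10 weeks (Young) and 20 months (Aged), with 2 libraries in each of 16 groups. All fractions were Lin-, and all but CLPs were negative for the IL-7 receptor alpha chain. HSCs were Sca-1+ and c-kit+, carried CD150, and were negative for CD34, CD48 and Flt3. The multipotent progenitors shared Sca-1+, c-kit+ and CD34+ and were CD150+ CD48- (MPP1), CD150+ CD48+ (MPP2) or CD150- CD48+ (MPP3 and MPP4), with Flt3 on MPP4 alone. GMPs, the granulocyte and macrophage progenitors, were Sca-1- c-kit+ FcgR+ CD34+, and MEPs, the megakaryocyte and erythrocyte progenitors, were Sca-1- c-kit+ FcgR- CD34-. CLPs, the common lymphoid progenitors, were positive for the IL-7 receptor alpha chain, with low Sca-1 and c-kit. One passage of the study has pooled marrow of each age sorted as duplicates and another calls the duplicates biological, so the p-values measure the spread between these libraries, which may be technical.

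In textbook outline, D cyclins are made in response to growth signals and bind CDK4 or CDK6, and the active kinases phosphorylate the retinoblastoma protein and its relatives. This releases E2F transcription factors, whose targets include the E cyclin genes and the enzymes of DNA synthesis. E cyclins then activate CDK2, which drives entry into S phase. Most HSCs rest outside the cycle, and in blood-forming tissue D cyclins are partly interchangeable. mRNA levels do not report the activity of these kinases, which depends on protein turnover, phosphorylation and inhibitors.

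The transcripts of the sort antigens mostly followed the gates, but some differed between ages. In CLPs, gated on low Sca-1, Ly6a averaged 35.2 CPM in Young and 214 CPM in Aged cells, against 210 CPM in Aged MPP1. Of 8 antigen genes, 0 were higher and 5 lower in Aged MEPs at an edgeR adjusted p under 0.01. In Aged CLPs 2 were higher and 1 lower. The part of these differences in the age results was not tested. Il7r, which encodes the IL-7 receptor, averaged 158 CPM in Young and 195 CPM in Aged CLPs and at most 13.4 CPM in the other groups. Cd34 averaged 0.351 CPM in Young and 0.629 CPM in Aged MEPs, Slamf1 (CD150) was highest in HSCs at 53.9 and 74.1 CPM, and Ly6a (Sca-1) averaged 0.256 and 0.387 CPM in MEPs. The CD34- gate notwithstanding, Cd34 averaged 204 CPM in Young and 180 CPM in Aged HSCs, below the 654 and 680 CPM of MPP1. CPM values are counts relative to library size, scaled by the TMM method. Total counts were 11237384 to 17723245 per library. Transcripts of other cell types differed between ages in several fractions. Some of these lists are given with the age results, and a list left out there was not always unchanged. Duplicates were less alike in some groups than in others. The chi-square of their counts per gene was 19 in Aged HSCs, 18.6 in Aged CLPs and 15.8 in Aged MPP3 and between 4.59 and 14.6 in the other 13 groups.

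On GRCm38, the GENCODE M21 annotation placed Ccnd1 (ENSMUSG00000070348.5) at chr7:144929931-144939925 on the minus strand, Ccnd2 (ENSMUSG00000000184.12) at chr6:127125162-127152193 on the minus strand and Ccnd3 (ENSMUSG00000034165.16) at chr17:47505051-47599691 on the plus strand. The kinase genes were Cdk4 (ENSMUSG00000006728.12) at chr10:127063534-127067920 on the plus strand, Cdk6 (ENSMUSG00000040274.11) at chr5:3341485-3531008 on the plus strand and Cdk2 (ENSMUSG00000025358.16) at chr10:128697939-128705031 on the minus strand. The E cyclin genes were Ccne1 (ENSMUSG00000002068.16) at chr7:38097984-38107534 on the minus strand and Ccne2 (ENSMUSG00000028212.16) at chr4:11191351-11204779 on the plus strand. Counts covered the exons of each gene. The counting was not stated to use strand, so reads from exons that overlap a gene on the opposite strand cannot be assigned with certainty. Such an overlap covered 1100 bases with LTO1 (Oraov1 in the count table) for Ccnd1, 361 with Bysl for Ccnd3, 641 with Tspan31 for Cdk4, 609 with Ints8 for Ccne2 and 34 with Pmel for Cdk2. For Ccnd2 it covered 368 bases with 9330179D12Rik and 372 with Gm43126, and for Cdk6 368 bases with Gm17590. No overlap was found for Ccne1.

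The proximal promoters were read for motifs after the age results were seen. Cdk4 and Cdk6 were both called higher with age in MPP1 and MPP4. Of these 2 genes, Cdk4 alone was called in MPP2 and MPP3 and Cdk6 alone in HSCs. E2F factors act on several of the members. RefSeq promoters of GRCm38.p6, from 250 bases before to 50 bases after each start, were at hand for 5 members (Cdk4, Cdk6, Ccnd3, Ccne1 and Cdk2). The E-box CACGTG, a palindrome that MYC family proteins bind, was present in 2 of the 5, Cdk4 and Cdk6, and in 7.15% of 32851 promoters. The E2F-like octamer TTTCCCGC, searched on both strands, was present in Cdk2 alone among the 5 and in 1.07% of all promoters. The 2 motifs did not overlap. A match is a description of letters and not evidence of binding. The part of these motifs in any age difference was not tested. Of the MYC family genes listed, Myc was called with age in no fraction and Mycn was called lower in 4. Cdk4 held 4 E-boxes and Cdk6 held 1. Each match is printed in a window of 30 bases with the motif in capitals, and the second and the third of the Cdk4 windows share bases.
Cdk6 E-box, chr5:3343661-3343690, plus strand: gttctgcggcccCACGTGggtgaacccccg
Cdk4 E-box, chr10:127063351-127063380, plus strand: atggcagccagtCACGTGccacacagcgta
Cdk4 E-box, chr10:127063405-127063434, plus strand: aagtcaaggggtCACGTGggatagcaacag
Cdk4 E-box, chr10:127063425-127063454, plus strand: atagcaacaggtCACGTGgccgtcagggcc
Cdk4 E-box, chr10:127063512-127063541, plus strand: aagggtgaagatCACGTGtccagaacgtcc
Cdk2 E2F-like octamer in reverse orientation, chr10:128705173-128705202, minus strand: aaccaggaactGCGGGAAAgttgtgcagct
Relative to the RefSeq starts, the matches began 220 bases before that of Cdk6, 172, 118, 98 and 11 bases before that of Cdk4 and 140 bases before that of Cdk2. The RefSeq start of Cdk6 lies downstream of the GENCODE start, so the Cdk6 window falls inside the gene as placed by GENCODE.

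The levels of the members were first described along the young hierarchy. Ccnd2 was highest in HSCs, at 533 and 493 CPM in the 2 libraries, and lowest in MEPs, at 119 and 143 CPM. It was the 1 member called lower in MPP1 than in HSCs, with 378 and 368 CPM there (log2 fold change -0.46 ± 0.12 (SE), edgeR adjusted p = 0.00948). It was lower again in MPP2 (262 and 264 CPM; log2 fold change -0.51 ± 0.12 (SE), edgeR adjusted p = 0.00897) and in MPP4 than in MPP1. In bulk libraries such as these, fewer cells with a transcript and less of it per cell cannot be told apart. Ccnd3 was highest in CLPs and MEPs. It stood at 289 and 293 CPM in HSCs and 193 and 191 CPM in MPP4, and at 726 and 678 CPM in MEPs and 1799 and 1857 CPM in CLPs. The step from MPP4 to CLPs was 9.53-fold (log2 fold change 3.25 ± 0.085 (SE), edgeR adjusted p = 2.33e-17) and the step from MPP2 to MEPs 2.23-fold (log2 fold change 1.15 ± 0.079 (SE), edgeR adjusted p = 1.82e-11). Bysl, which overlaps Ccnd3 at 361 bases and acts in ribosome assembly, averaged 59.6 CPM in Young MPP4, 321 CPM in Young CLPs, 88.3 CPM in Young MPP2 and 257 CPM in Young MEPs, and its part in the Ccnd3 counts was not tested. Ccnd1 was low outside CLPs, between 16.6 and 48.8 CPM in the libraries of the other 7 young fractions, and reached 100 and 98.7 CPM in CLPs (4.45-fold above MPP4, log2 fold change 2.15 ± 0.20 (SE), edgeR adjusted p = 1.51e-08).

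The kinases rose on leaving the HSC fraction. Cdk6 stood at 18.7 and 19.9 CPM in young HSCs, 50.4 and 43.6 CPM in MPP1 and 132 and 135 CPM in MPP2, and was highest in GMPs at 189.9 and 182 CPM. No young HSC library reached the lowest library of any other fraction. The rise was 2.43-fold from HSCs to MPP1 (log2 fold change 1.28 ± 0.12 (SE), edgeR adjusted p = 7.09e-08) and a further 2.84-fold to MPP2 (log2 fold change 1.5 ± 0.12 (SE), edgeR adjusted p = 1.15e-08). Cdk4 varied less, from 417 and 427 CPM in HSCs to 763 and 797 CPM in MEPs, and its rise from HSCs to MPP1 was 1.23-fold (log2 fold change 0.30 ± 0.074 (SE), edgeR adjusted p = 0.00515). The ratio of the highest to the lowest fraction mean was 9.61 for Cdk6 and 1.85 for Cdk4. Cdk2 spanned 1.89-fold, from 91.9 and 104 CPM in HSCs to 191 and 179 CPM in CLPs, and rose 1.36-fold from HSCs to MPP1 (log2 fold change 0.45 ± 0.075 (SE), edgeR adjusted p = 0.000124).

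The E cyclins had the widest range. Ccne1 was at 3.48 and 3.39 CPM in young HSCs and at 333 and 354 CPM in MEPs, a ratio of means of 100. Every MEP library exceeded every library of the other fractions. The step from MPP2 (16.6 and 16.6 CPM) to MEPs was 20.7-fold (log2 fold change 4.37 ± 0.12 (SE), edgeR adjusted p = 1.07e-17). CLPs and GMPs followed at 50.6 and 49.4 CPM and 46.4 and 49.4 CPM. Ccne2 ranged from 2.67 and 3.72 CPM in HSCs to 84.9 and 84.1 CPM in MEPs, and its step from MPP2 to MEPs was 4.96-fold (log2 fold change 2.31 ± 0.11 (SE), edgeR adjusted p = 5.73e-14). In GMPs it stood at 57.1 and 63.2 CPM, 4.55-fold above MPP3 (log2 fold change 2.18 ± 0.11 (SE), edgeR adjusted p = 4.02e-13). Ints8, a subunit of the Integrator complex whose exons overlap those of Ccne2, averaged 31.9 CPM in young HSCs, 73.8 CPM in MPP2 and 276 CPM in MEPs, and its part in the Ccne2 counts was not tested.

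Over the 7 steps between young fractions, 35 of 56 member tests were called at an edgeR adjusted p under 0.01, against a background of called genes that differed widely between steps. From HSCs to MPP1, 6 of 8 members were called, where 14.8% of all genes tested were called. From MPP1 the calls were 4 members in MPP2 (6.82% of all genes), 2 in MPP3 (5.49%) and 4 in MPP4 (12.9%). From MPP3 to GMPs 7 members were called (58.0% of all genes), from MPP2 to MEPs 5 (64.0%) and from MPP4 to CLPs 7 (41.8%). The steps share libraries, MPP1 being the reference of 3 of them. In the order of means, some neighbouring fractions overlapped in their libraries, and most did not. For Ccnd1, the order was CLP, HSC, MPP1, GMP, MPP4, MPP3, MPP2 and MEP, with overlap between HSC and MPP1 and among the last 4. For Cdk6 it was GMP, MPP2, CLP, MEP, MPP3, MPP4, MPP1 and HSC, with overlap of MPP2 with CLP and of MEP with MPP3. The orders of Ccnd2 and Ccnd3 had no overlap between neighbours in young cells. For Ccne1 the CLP and GMP libraries met at 49.4 CPM, and no other neighbours overlapped.

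**Figure D1:**
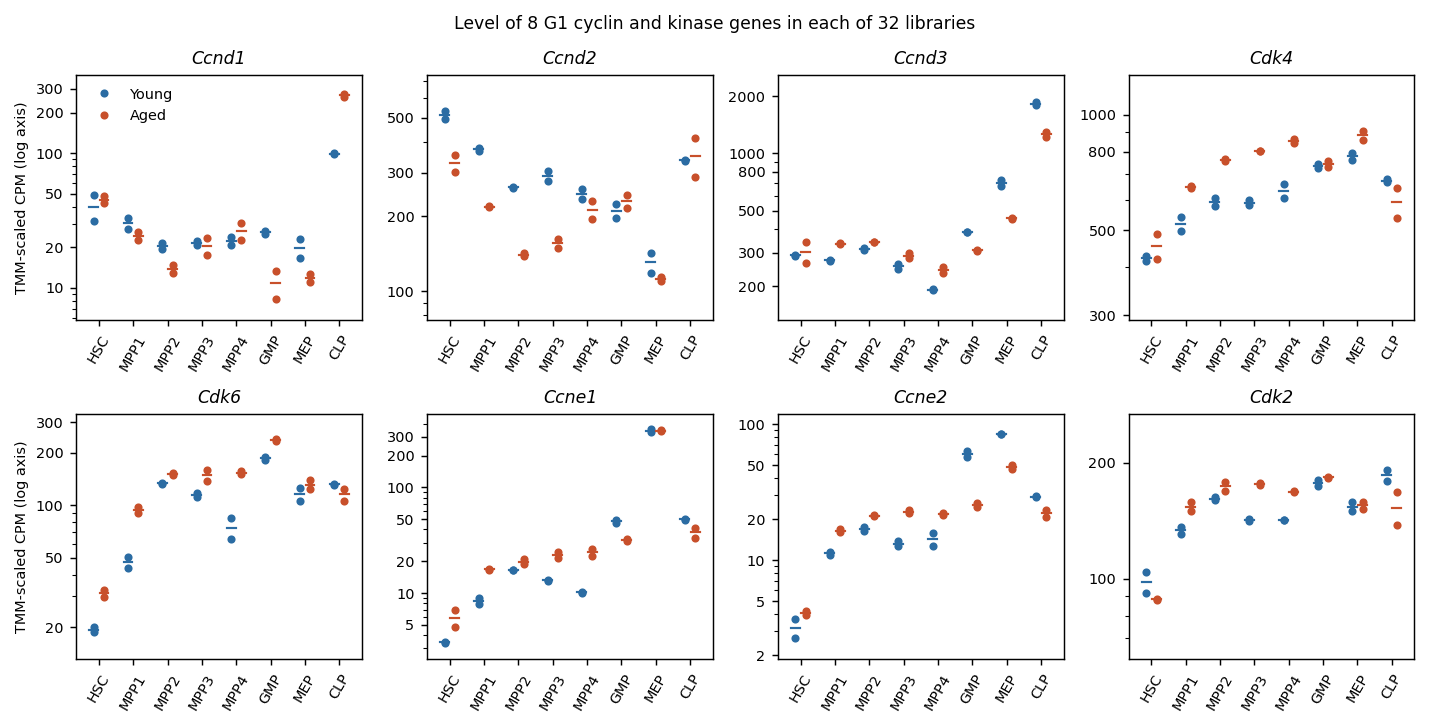
TMM-scaled CPM (log axis) of the 8 members in each of the 32 libraries, by fraction, with Young in blue and Aged in red; short lines are means of 2 libraries. Ccne1 was highest in MEPs and Ccnd3 and Ccnd1 in CLPs at both ages, and Aged libraries lay below Young libraries for Ccnd2 from HSC to MPP3.

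Levels were compared between genes only per kilobase, and under 2 lengths, the union of all annotated exons and the longest protein coding transcript. These differed most for Ccnd3 (8775 and 2113 bases). Under both lengths, Cdk4 had the highest mean of the 8 members in 14 of the 16 groups, for example 129.9 CPM per kb of union exons in young HSCs, where Cdk6 had 1.38. The exceptions were CLPs. In Young CLPs Ccnd3 was above Cdk4, at 208 against 207 CPM per kb of union exons and 865 against 328 CPM per kb of the coding transcript. In Aged CLPs the order depended on the length (143 against 182 CPM per kb of union exons, 596 against 289 of the coding transcript). Cdk6 contributed 0.8% to 5.5% of the summed Cdk4 and Cdk6 level per kb of coding transcript, and 1.0% to 7.1% with union exons.

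The mix of D cyclin mRNAs changed along the hierarchy and with age. Per kb of coding transcript, Ccnd3 held 60.1% of the summed D cyclin level in Young HSCs, 92.7% in MEPs and 91.6% in CLPs, and Ccnd2 held 35.3%, 5.8% and 5.6%. In Aged HSCs the share of Ccnd3 was 69.2% and that of Ccnd2 24.9%. In MPP1 the Ccnd2 share was 29.6% and 30.3% in the Young and 17.2% and 17.4% in the Aged libraries. With union exons, Ccnd2 held the larger share in Young HSCs (56.7%, Ccnd3 34.6%), so which D cyclin was most abundant in HSCs is not settled by these counts. Under both lengths the mean Ccnd2 share was lower in Aged than in Young cells in HSCs and in each of MPP1 to MPP4. In CLPs the share of Ccnd1 was 2.8% in Young and 9.9% in Aged cells per kb of coding transcript.

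**Figure D2:**
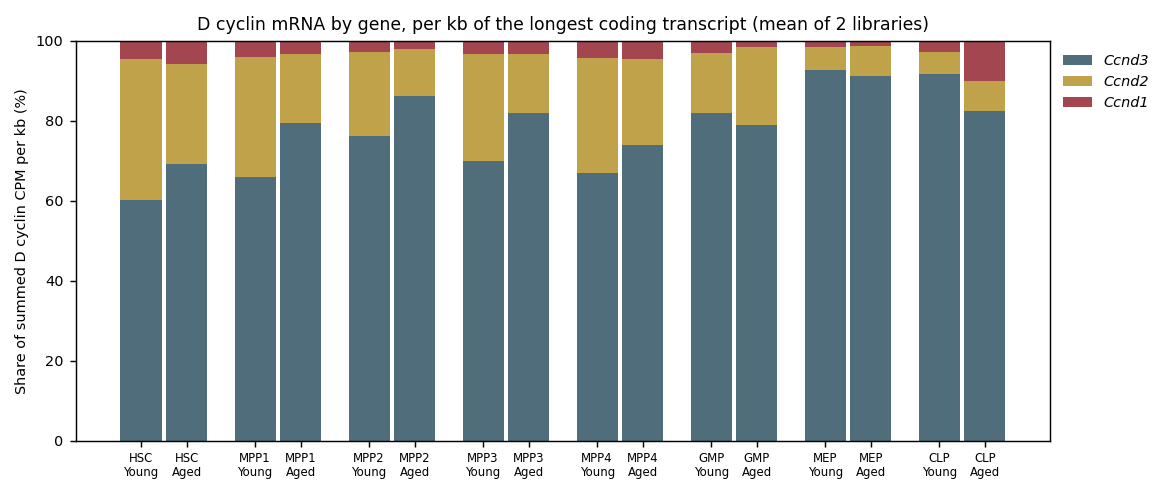
Mean share (%) of Ccnd1, Ccnd2 and Ccnd3 in the summed D cyclin level per kb of the longest coding transcript, by fraction and age, from 2 libraries each. The Ccnd2 segment is smaller in Aged than Young cells from HSC to MPP4, and the Ccnd1 segment is 9.9% in Aged and 2.8% in Young CLPs.

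The main question of the design was how Aged cells of a fraction differ from Young ones. Ccnd2 was lower in Aged cells in 4 of 8 fractions and higher in none. In HSCs it stood at 533 and 493 CPM in the 2 Young and 302 and 352 CPM in the 2 Aged libraries, 0.638 of the Young level (log2 fold change -0.65 ± 0.12 (SE), edgeR adjusted p = 0.00148). Without Young HSC replicate 1 or Aged HSC replicate 1, in turn, it was no longer called (log2 fold change -0.62 to -0.58, edgeR adjusted p 0.0151 to 0.0165). In MPP1 the values were 378 and 368 against 219.5 and 219 CPM (log2 fold change -0.77 ± 0.13 (SE), edgeR adjusted p = 0.00027). MPP2 had 262 and 264 against 142 and 139 CPM (log2 fold change -0.90 ± 0.13 (SE), edgeR adjusted p = 6.93e-05) and MPP3 278 and 304 against 150.0 and 162 CPM (log2 fold change -0.90 ± 0.13 (SE), edgeR adjusted p = 2.83e-05). In each of these 4 fractions the ages did not overlap, which is weak evidence with 2 libraries a group. The share of all genes without overlap is not given. The MPP1, MPP2 and MPP3 calls were kept without any 1 library. In MPP4 the difference was not called (234 and 258 against 195 and 231 CPM; log2 fold change -0.21 ± 0.13 (SE), edgeR adjusted p = 0.246). GMPs, MEPs and CLPs had log2 fold changes of 0.13 ± 0.13, -0.23 ± 0.13 and 0.058 ± 0.12 (SE), none of them called. The libraries also differed in transcripts of other cell types. In HSCs, 6 of 8 neutrophil markers were higher (270 to 294 CPM summed in Young and 634 to 817 CPM in Aged libraries), and 4 of 6 basophil and mast cell markers were higher (508 to 516 CPM summed in Young and 496 to 589 CPM in Aged libraries), with 3 genes of that list at 0 in both Young libraries. Nearly all of the basophil and mast cell sum in HSCs was Gata2, with means of 510 CPM in Young and 528 CPM in Aged cells. Of 6 megakaryocyte markers in HSCs, 2 were higher and 0 lower (338 to 345 CPM summed in Young and 556 to 614 CPM in Aged libraries). In MPP2, 5 of 8 red cell markers were lower (1570 to 1790 CPM summed in Young and 420 to 442 CPM in Aged libraries), and 5 of 8 neutrophil markers were lower (2540 to 2660 CPM summed in Young and 1830 to 1840 CPM in Aged libraries). In MPP3, 6 of 8 red cell markers were lower (1800 to 1910 CPM summed in Young and 395 to 439 CPM in Aged libraries), 5 of 8 neutrophil markers were lower (4490 to 4760 CPM summed in Young and 2180 to 2210 CPM in Aged libraries), 5 of 7 macrophage markers were lower (133 to 143 CPM summed in Young and 35.9 to 36.2 CPM in Aged libraries), and 4 of 6 megakaryocyte markers were lower (148 to 159 CPM summed in Young and 148 to 157 CPM in Aged libraries). Most of the megakaryocyte sum in MPP3 was Itga2b, with means of 111 CPM in Young and 141 CPM in Aged cells. The part of these markers in the Ccnd2 and other results of HSCs, MPP2 and MPP3 was not tested.

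Ccnd3 was lower with age in the 3 restricted progenitors and higher in MPP4. In MEPs it stood at 726 and 678 CPM in the 2 Young and 455 and 459.6 CPM in the 2 Aged libraries (log2 fold change -0.62 ± 0.078 (SE), edgeR adjusted p = 3.26e-06). In CLPs it stood at 1799 and 1857 against 1218 and 1299 CPM (log2 fold change -0.54 ± 0.077 (SE), edgeR adjusted p = 4.39e-05) and in GMPs at 386 and 386 against 308 and 311 CPM (log2 fold change -0.32 ± 0.078 (SE), edgeR adjusted p = 0.00358). In all 3 fractions the Young libraries lay above the Aged ones, which is weak evidence with 2 libraries a group. In MPP4 the values were 193 and 191 against 234 and 254 CPM (log2 fold change 0.35 ± 0.078 (SE), edgeR adjusted p = 0.0021). The CLP difference was not called when only the 4 libraries of that fraction were fitted (edgeR adjusted p = 0.0101). In GMPs, without any 1 of the 4 libraries it was no longer called (log2 fold change -0.34 to -0.32, edgeR adjusted p 0.0128 to 0.0296). In MPP4, without Young MPP4 replicate 1, Young MPP4 replicate 2 or Aged MPP4 replicate 2, in turn, it was no longer called (log2 fold change 0.29 to 0.36, edgeR adjusted p 0.013 to 0.0297). Bysl, the gene on the other strand, moved the same way in CLPs (321 CPM in Young and 222 CPM in Aged (means), log2 fold change -0.53 ± 0.083 (SE), edgeR adjusted p = 0.00012) and in MPP4 (59.6 CPM in Young and 95.8 CPM in Aged (means), log2 fold change 0.69 ± 0.087 (SE), edgeR adjusted p = 5.71e-06). In MEPs it was not called (257 CPM in Young and 267 CPM in Aged (means), log2 fold change 0.053 ± 0.083 (SE), edgeR adjusted p = 0.709). Its part in the CLP and MPP4 results was not tested. In Aged CLPs, 6 of 6 basophil and mast cell markers were lower (1790 to 1840 CPM summed in Young and 8.96 to 16.4 CPM in Aged libraries), and Prss34 had a mean of 1300 CPM in Young and 0 counts in both Aged libraries. There, 8 of 8 neutrophil markers were lower (1910 to 1960 CPM summed in Young and 354 to 357 CPM in Aged libraries), 7 of 8 B cell markers were lower (2680 to 2740 CPM summed in Young and 1260 CPM in Aged libraries), 7 of 7 macrophage markers were lower (168 to 184 CPM summed in Young and 5.57 to 8.11 CPM in Aged libraries), and 3 of 8 red cell markers were lower (2390 to 2490 CPM summed in Young and 139 to 895 CPM in Aged libraries). In the other direction, 5 of 6 megakaryocyte markers were higher (37.8 to 39.6 CPM summed in Young and 126 to 196 CPM in Aged libraries). In Aged MEPs, 6 of 8 B cell markers were lower (182 to 194 CPM summed in Young and 0.430 to 1.22 CPM in Aged libraries), with Ebf1 at 0 in both Aged libraries, and 4 of 7 macrophage markers were lower (8.33 to 13.7 CPM summed in Young and 0 to 0.516 CPM in Aged libraries). Of 8 neutrophil markers in MEPs, 1 was higher and 3 were lower (253 to 279 CPM summed in Young and 28.1 to 122 CPM in Aged libraries). The part of these cells in the CLP and MEP results of any member was not tested.

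Ccnd1 changed in opposite directions in 2 fractions. In Aged CLPs it rose 2.70-fold, from 100 and 98.7 to 274 and 262 CPM (log2 fold change 1.43 ± 0.19 (SE), edgeR adjusted p = 2.04e-05), and the call was kept without any 1 library. The marker changes given for Ccnd3 are those of the same CLP libraries. In Aged GMPs it fell to 0.417 of the Young level, from 26.6 and 25.2 to 8.23 and 13.4 CPM (log2 fold change -1.26 ± 0.23 (SE), edgeR adjusted p = 0.000265). Without Aged GMP replicate 1 it was no longer called (log2 fold change -0.96, edgeR adjusted p 0.014). In MEPs the values were 16.6 and 23.1 against 11.1 and 12.6 CPM and the difference was not called (log2 fold change -0.74 ± 0.23 (SE), edgeR adjusted p = 0.0163). Without Young MEP replicate 1 it was called (log2 fold change -0.99, edgeR adjusted p 0.00655). Oraov1, which shares exon bases with Ccnd1, was low in comparison in CLPs (12.7 CPM in Young and 18.5 CPM in Aged (means), log2 fold change 0.54 ± 0.23 (SE), edgeR adjusted p = 0.115) and not called lower in GMPs (7.91 CPM in Young and 11.9 CPM in Aged (means), log2 fold change 0.59 ± 0.24 (SE), edgeR adjusted p = 0.0736).

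Cdk6 was called higher in Aged HSCs, MPP1 and MPP4. In HSCs it stood at 18.7 and 19.9 CPM in the 2 Young and 32.8 and 29.7 CPM in the 2 Aged libraries, a 1.61-fold rise (log2 fold change 0.69 ± 0.13 (SE), edgeR adjusted p = 0.00086). Without Young HSC replicate 1, Young HSC replicate 2 or Aged HSC replicate 1, in turn, it was no longer called (log2 fold change 0.58 to 0.69, edgeR adjusted p 0.018 to 0.0278). In MPP1 the values were 50.4 and 43.6 against 89.9 and 98.2 CPM (log2 fold change 1.00 ± 0.12 (SE), edgeR adjusted p = 6.4e-06) and in MPP4 84.2 and 64.0 against 151 and 156 CPM (log2 fold change 1.05 ± 0.11 (SE), edgeR adjusted p = 7.63e-07). The folds were 2.00 and 2.07, and both calls were kept without any 1 library. In MPP3 (117 and 112 against 158 and 138 CPM) and GMPs (189.9 and 182 against 239 and 235 CPM) the Aged libraries also lay above the Young ones, but the edgeR adjusted p of 0.0165 and 0.019 missed the threshold. In CLPs both Aged libraries lay below both Young ones (131 and 133 against 106 and 124 CPM), also uncalled (log2 fold change -0.19 ± 0.11 (SE), edgeR adjusted p = 0.251). The level in Aged HSCs, 32.8 and 29.7 CPM, remained below that of Young MPP1, 50.4 and 43.6 CPM. In MPP4, 5 of 7 macrophage markers were lower (63.2 to 73.9 CPM summed in Young and 12.7 to 13.5 CPM in Aged libraries). Of 8 red cell markers there, 2 were lower and 0 higher (677 to 852 CPM summed in Young and 212 to 230 CPM in Aged libraries). In MPP1, 2 of 7 macrophage markers were lower (45.6 to 51.9 CPM summed in Young and 16.6 to 18.0 CPM in Aged libraries). The part of these markers in the results of MPP1 and MPP4 was not tested.

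Cdk4 was called higher with age in all 4 MPP fractions. The values were 497 and 541 against 654 and 643 CPM in MPP1 (log2 fold change 0.32 ± 0.074 (SE), edgeR adjusted p = 0.00574) and 577 and 608 against 766 and 756 CPM in MPP2 (log2 fold change 0.36 ± 0.074 (SE), edgeR adjusted p = 0.00223). They were 580.1 and 599 against 805 and 805 CPM in MPP3 (log2 fold change 0.45 ± 0.074 (SE), edgeR adjusted p = 0.000156) and 606 and 662 against 866 and 844 CPM in MPP4 (log2 fold change 0.43 ± 0.074 (SE), edgeR adjusted p = 0.000168). The 4 increases were between 1.25-fold and 1.37-fold. In each the ages did not overlap, again weak evidence with 2 libraries a group. For MPP1, without any 1 of the 4 libraries it was no longer called (log2 fold change 0.26 to 0.38, edgeR adjusted p 0.0129 to 0.114). For MPP2, without Young MPP2 replicate 1, Young MPP2 replicate 2 or Aged MPP2 replicate 1, in turn, it was no longer called (log2 fold change 0.32 to 0.40, edgeR adjusted p 0.0119 to 0.0431). In the 4 MPP fractions Tspan31, on the other strand, had log2 fold changes with age from -0.032 in MPP4 to 0.077 in MPP3, none of them called. In HSCs Cdk4 was at 417 and 427 against 422 and 489 CPM and was not called (log2 fold change 0.11 ± 0.074 (SE), edgeR adjusted p = 0.408). In CLPs it was at 669 and 678 against 539 and 646 CPM (log2 fold change -0.18 ± 0.074 (SE), edgeR adjusted p = 0.0894). Without Aged CLP replicate 2 it was called (log2 fold change -0.34, edgeR adjusted p 0.00174). Tspan31 was called higher in Aged CLPs (133 CPM in Young and 201 CPM in Aged (means), log2 fold change 0.59 ± 0.087 (SE), edgeR adjusted p = 5.12e-05) and lower in Aged GMPs (280 CPM in Young and 223 CPM in Aged (means), log2 fold change -0.33 ± 0.086 (SE), edgeR adjusted p = 0.00583), and its part in the Cdk4 values there was not tested.

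Ccne1 and Ccne2 were both called higher in Aged MPP1, MPP3 and MPP4 and lower in Aged GMPs. Ccne1 rose in HSCs from 3.48 and 3.39 to 4.77 and 6.97 CPM (log2 fold change 0.79 ± 0.17 (SE), edgeR adjusted p = 0.00409), a call at a low level. Without Young HSC replicate 1, Young HSC replicate 2 or Aged HSC replicate 2, in turn, it was no longer called (log2 fold change 0.46 to 0.77, edgeR adjusted p 0.0303 to 0.224). In MPP1 the values were 9.06 and 7.84 against 16.9 and 16.7 CPM (log2 fold change 0.99 ± 0.13 (SE), edgeR adjusted p = 2.88e-05), in MPP3 13.4 and 13.2 against 21.6 and 24.4 CPM (log2 fold change 0.79 ± 0.12 (SE), edgeR adjusted p = 8.03e-05) and in MPP4 10.3 and 10.1 against 26.3 and 22.3 CPM, a 2.37-fold rise (log2 fold change 1.25 ± 0.12 (SE), edgeR adjusted p = 3.8e-07). These calls were kept without any 1 library. In GMPs Ccne1 fell, with 46.4 and 49.4 against 31.3 and 32.5 CPM (log2 fold change -0.58 ± 0.11 (SE), edgeR adjusted p = 0.000477). This was not called when only the 4 GMP libraries were fitted (edgeR adjusted p = 0.0113). In MEPs, where it was highest, the ages overlapped (333 and 354 against 350.2 and 339.8 CPM; log2 fold change 0.0058 ± 0.10 (SE), edgeR adjusted p = 1). In CLPs the values were 50.6 and 49.4 against 33.5 and 41.5 CPM (log2 fold change -0.41 ± 0.11 (SE), edgeR adjusted p = 0.011). Without Aged CLP replicate 2 it was called (log2 fold change -0.59, edgeR adjusted p 0.00187).

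Ccne2 fell most in GMPs, from 57.1 and 63.2 to 24.4 and 26.3 CPM, 0.421 of the Young level (log2 fold change -1.25 ± 0.11 (SE), edgeR adjusted p = 5.6e-08). In MEPs it fell from 84.9 and 84.1 to 46.5 and 50.3 CPM (log2 fold change -0.81 ± 0.10 (SE), edgeR adjusted p = 5e-06). Both calls were kept without any 1 library. Ints8 was also lower with age in GMPs (183 CPM in Young and 100 CPM in Aged (means), log2 fold change -0.87 ± 0.073 (SE), edgeR adjusted p = 4.26e-08) and MEPs (276 CPM in Young and 202 CPM in Aged (means), log2 fold change -0.45 ± 0.072 (SE), edgeR adjusted p = 6.03e-05), and its part in the 2 results was not tested. In GMPs, 7 of 8 red cell markers were lower (1320 to 1560 CPM summed in Young and 57.1 to 147 CPM in Aged libraries). There, 4 of 8 neutrophil markers were lower (87800 to 89100 CPM summed in Young and 87700 CPM in Aged libraries). Most of that neutrophil sum was Mpo, with means of 69000 CPM in Young and 68400 CPM in Aged GMPs. Lower too were 4 of 7 macrophage markers (145 to 163 CPM summed in Young and 103 to 141 CPM in Aged libraries). Of 6 basophil and mast cell markers, 2 were lower and 0 higher (702 to 703 CPM summed in Young and 312 to 386 CPM in Aged libraries). The part of these markers in the GMP results of any member was not tested. Ccne2 was higher with age in MPP1 (10.9 and 11.5 against 16.2 and 16.8 CPM; log2 fold change 0.56 ± 0.12 (SE), edgeR adjusted p = 0.00265), in MPP3 (13.8 and 12.7 against 22.2 and 23.2 CPM; log2 fold change 0.78 ± 0.12 (SE), edgeR adjusted p = 4.84e-05) and in MPP4 (12.7 and 15.9 against 22.0 and 21.6 CPM; log2 fold change 0.61 ± 0.11 (SE), edgeR adjusted p = 0.000372). In MPP1, without any 1 of the 4 libraries it was no longer called (log2 fold change 0.52 to 0.62, edgeR adjusted p 0.0115 to 0.0495). In MPP4, without Young MPP4 replicate 1 it was no longer called (log2 fold change 0.46, edgeR adjusted p 0.0211). Cdk2, the kinase of both E cyclins, was called in 1 fraction, MPP3 (143 and 141 against 175 and 177 CPM; log2 fold change 0.31 ± 0.074 (SE), edgeR adjusted p = 0.00427). Without any 1 of the 4 libraries it was no longer called (log2 fold change 0.33 to 0.35, edgeR adjusted p 0.0123 to 0.022). In CLPs it was at 191 and 179 against 137 and 168 CPM (log2 fold change -0.28 ± 0.074 (SE), edgeR adjusted p = 0.0108). Without Aged CLP replicate 2 it was called (log2 fold change -0.45, edgeR adjusted p 0.000188). In the other 6 fractions its log2 fold change lay between -0.14 in HSCs and 0.24 in MPP4.

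**Figure D3:**
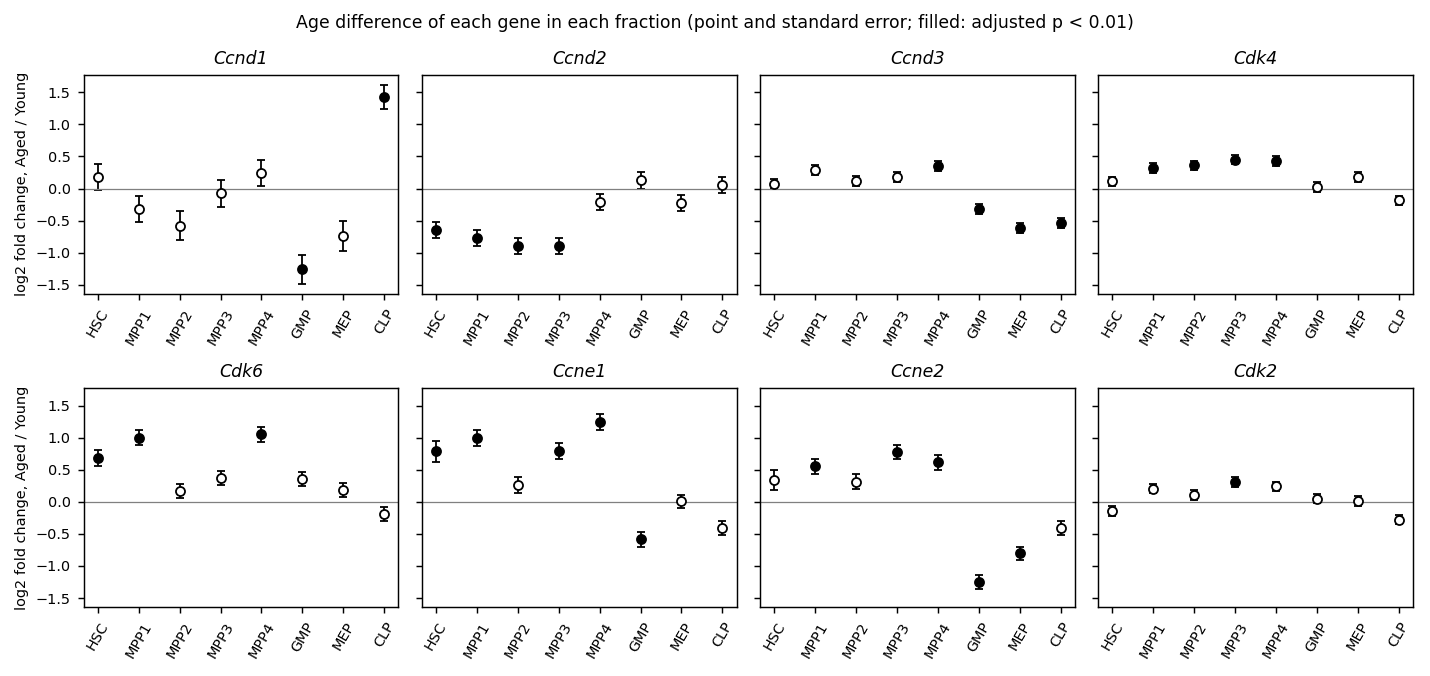
Log2 fold change of Aged over Young cells for each member in each fraction, with its standard error from the edgeR fit; filled points have an adjusted p under 0.01. Ccnd2 lies between -0.90 and -0.65 from HSC to MPP3, Cdk6, Ccne1 and Ccne2 lie above 0 from HSC to MPP4, and Ccnd3 is below 0 in GMP, MEP and CLP.

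Counted by fraction, the members called with age were 2 higher and 1 lower in HSCs (background 3.74% of all genes higher and 1.66% lower), 4 higher and 1 lower in MPP1 (background 4.71% of all genes higher and 2.09% lower), 1 higher and 1 lower in MPP2 (background 4.49% of all genes higher and 3.31% lower), 4 higher and 1 lower in MPP3 (background 8.14% of all genes higher and 5.79% lower) and 5 higher and 0 lower in MPP4 (background 10.3% of all genes higher and 6.27% lower). They were 0 higher and 4 lower in GMPs (background 9.93% of all genes higher and 8.97% lower), 0 higher and 2 lower in MEPs (background 9.09% of all genes higher and 11.7% lower) and 1 higher and 1 lower in CLPs (background 5.71% of all genes higher and 4.73% lower). In all, 28 of 64 member tests were called. The median log2 fold change of the 8 members was 0.14 in both HSCs and MPP2, 0.30 in MPP1, 0.34 in MPP3 and 0.39 in MPP4, and -0.15 in GMPs, -0.11 in MEPs and -0.24 in CLPs. The median of all genes tested lay between -0.04 and 0.02 in the 8 fractions. Single libraries moved several counts. In HSCs the 3 calls went to 0 without Young HSC replicate 1 and to 1 without Young HSC replicate 2 or Aged HSC replicate 1. In MPP1 the 5 calls went to 3 without any 1 of the 4 libraries. In MPP2 the 2 calls went to 1 without Young MPP2 replicate 1, Young MPP2 replicate 2 or Aged MPP2 replicate 1. In MPP4 the 5 calls went to 3 without Young MPP4 replicate 1, in GMPs the 4 calls went to 2 without Aged GMP replicate 1, and in CLPs the 2 calls went to 5 without Aged CLP replicate 2.

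Whether the age difference of a restricted fraction differs from that of the multipotent progenitors was tested directly, as the difference in a fraction minus the mean over MPP1 to MPP4. In CLPs 8 of 8 members differed (22.6% of all genes), in GMPs 6 (26.6%), in MEPs 4 (24.8%) and in HSCs 0 (3.00%). For HSCs, 2 members came nearest to the threshold. They were Cdk2 (-0.36 ± 0.084 (SE), edgeR adjusted p = 0.0107) and Cdk4 (-0.28 ± 0.083 (SE), edgeR adjusted p = 0.0401). DESeq2 called 1 member there. The E cyclins differed in all 3 restricted fractions. For Ccne2 the difference was -1.81 ± 0.12 (SE), edgeR adjusted p = 1.11e-09, in GMPs, -1.37 ± 0.12 (SE), edgeR adjusted p = 2.08e-08, in MEPs, and -0.97 ± 0.12 (SE), edgeR adjusted p = 4.03e-06, in CLPs. For Ccne1 it was -1.41 ± 0.13 (SE), edgeR adjusted p = 4.88e-08, in GMPs, -0.82 ± 0.12 (SE), edgeR adjusted p = 1.76e-05, in MEPs, and -1.24 ± 0.13 (SE), edgeR adjusted p = 2.41e-07, in CLPs. Ccnd3 also differed in all 3, by -0.56, -0.85 and -0.77 in GMPs, MEPs and CLPs. Ccnd2 differed in the other direction in GMPs (0.82 ± 0.14 (SE), edgeR adjusted p = 9.3e-05) and CLPs (0.75 ± 0.14 (SE), edgeR adjusted p = 0.000253). Ccnd1 differed upward in CLPs (1.61 ± 0.22 (SE), edgeR adjusted p = 7.32e-06) and downward in GMPs (-1.08 ± 0.25 (SE), edgeR adjusted p = 0.00171). The 4 contrasts share the 16 MPP libraries.

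Ratios of paired genes within a library need no scaling between libraries. Labels of age were exchanged within fractions in an exact two-sided permutation test over all 8 fractions, for 3 ratios. The exchange treats the fractions as independent. If fractions of an age were sorted from the same pooled marrow they are not, and these p-values do not measure the spread between mice. The log2 ratio of Ccnd2 to Ccnd3 was different in Aged cells by a mean of -0.38 (exact permutation p = 0.0207, adjusted p = 0.0207). The mean covers opposite directions. The ratio was lower in HSCs (-0.7), MPP1 (-1.06), MPP2 (-1.02), MPP3 (-1.08) and MPP4 (-0.56) and higher in GMPs (0.45), MEPs (0.4) and CLPs (0.57), with no overlap of the ages in any of the 8. With 2 libraries a group, ages without overlap are weak evidence here and for single members, and the share of all genes without overlap is not given. For Cdk2 the ages did not overlap in 7 of 8 fractions, and it was called in 1. Over HSCs and MPP1 to MPP4 alone the mean was -0.885 (exact permutation adjusted p = 7.72e-04). Since the ages separated in the same direction in each of these fractions, the unadjusted p could only be the lowest possible. It adds nothing to the separation itself.

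The log2 ratio of Cdk6 to Cdk4 differed by a mean of 0.24 (exact permutation p = 0.00646, adjusted p = 0.00969). It was higher in Aged cells in 5 of 8 fractions, counting MEPs, where the difference was only 0.01. The increase was 0.58 in HSCs, 0.68 in MPP1, 0.63 in MPP4 and 0.33 in GMPs, without overlap. In MPP2 the difference was -0.19, also without overlap, and in MPP3, MEPs and CLPs the ages overlapped. The log2 ratio of Ccne2 to Ccne1 differed by a mean of -0.35 (exact permutation p = 7.16e-04, adjusted p = 0.00215), with the lowest values in MEPs (-0.81), GMPs (-0.66) and MPP4 (-0.62). In MPP1 the difference was -0.43 without overlap, and in HSCs -0.37 with overlapping ages. In MPP2, MPP3 and CLPs the Ccne2 to Ccne1 ratio differed by 0.06, -0.01 and 0.01, with overlapping ages. Ints8, whose exons overlap those of Ccne2, was lower with age in GMPs and MEPs, and its part in this ratio was not tested. Over all 8 fractions, the smallest p this test can give is 1.19e-06.

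**Figure D4:**
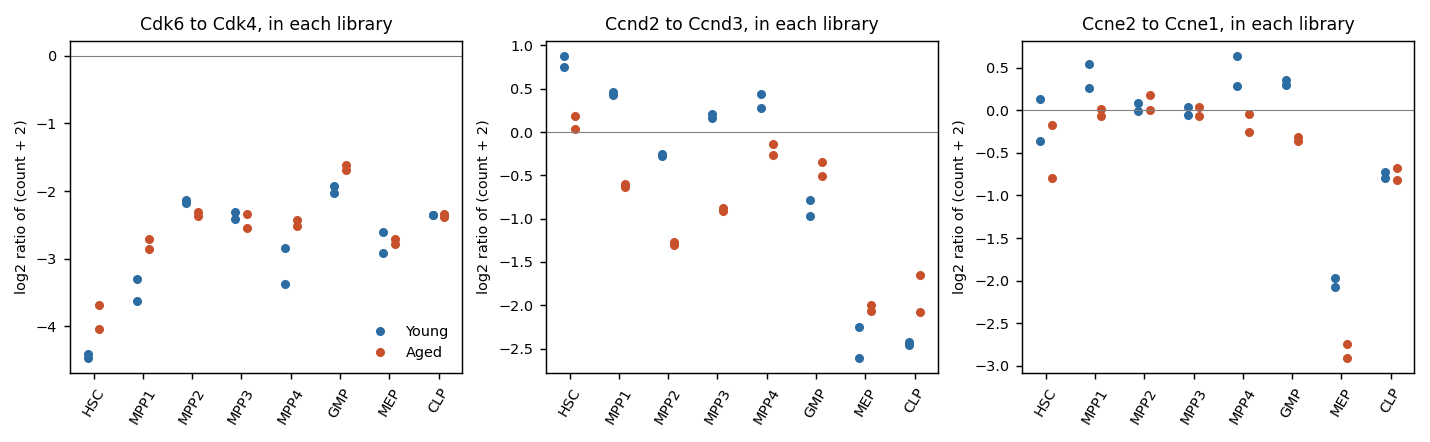
Log2 ratio of the counts of paired members (count + 2) in each library, by fraction, with Young in blue and Aged in red. The Ccnd2 to Ccnd3 ratio is lower in Aged libraries from HSC to MPP4 and higher in GMP, MEP and CLP, and the Cdk6 to Cdk4 ratio is lowest in Young HSCs.

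Other genes of the pathway were described from set lists, with the members left out. The lists were chosen with earlier results of these data known. The background shares of all genes are those given with the member counts, for example 4.71% higher and 2.09% lower in MPP1. Of 15 G1 to S target genes tested, among them the nucleotide synthesis and MCM helicase genes, those called in Aged cells were 8 higher and 0 lower in HSCs. For MPP1, MPP2, MPP3 and MPP4 in order they were 15 higher and 0 lower, 6 higher and 0 lower, 14 higher and 0 lower, and 14 higher and 0 lower. In GMPs, MEPs and CLPs the counts were 0 higher and 8 lower, 0 higher and 5 lower and 0 higher and 9 lower. The list's median log2 fold change went from 0.66 in MPP1 and 0.52 in HSCs and MPP4 to -0.32 in CLPs. Rrm2, the small subunit of ribonucleotide reductase, rose in HSCs (0.94 ± 0.084 SE) and MPP4 (1.06 ± 0.077) and fell in MEPs (-0.50 ± 0.075) and CLPs (-0.55 ± 0.075). Rrm1, the large subunit, Tk1, the thymidine kinase, and Tyms, the thymidylate synthase, were each called higher in 5 fractions, HSCs and MPP1 to MPP4. Rrm1 was called lower in GMPs, MEPs and CLPs (-0.35 ± 0.064, -0.44 ± 0.064 and -0.32 ± 0.064) and Tyms in CLPs (-0.38 ± 0.075). In HSCs the log2 fold changes of Rrm1, Tk1 and Tyms were 0.52 ± 0.065, 1.22 ± 0.13 and 0.91 ± 0.081.

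Among 13 pocket proteins and E2F factors, E2f8 and E2f7, repressors within the E2F family, were called higher in 5 and 4 fractions, with 1.34 ± 0.20 and 1.23 ± 0.16 in HSCs (log2 fold change, SE), and E2f8 lower in CLPs (-0.55 ± 0.13). At most 5 genes of the list were called higher and 4 lower in any fraction. Tfdp1, the dimer partner of E2F factors, rose in MPP1 to MPP4 (for MPP3 0.53 ± 0.06) and fell in GMPs, MEPs and CLPs (for GMPs -0.33 ± 0.06). Of the later cyclins and kinases 5 were tested. In HSCs 4 higher and 0 lower were called, in MPP3 5 higher and 0 lower and in CLPs 0 higher and 4 lower. Ccnb1, the mitotic B cyclin, rose in 6 fractions and fell in CLPs (-0.54 ± 0.081). Unlike the E cyclins it rose in GMPs (0.82 ± 0.082), as did its kinase Cdk1 (0.48 ± 0.082), which fell in CLPs (-0.48 ± 0.082). Ccna2 (A cyclin) was called higher in 5 fractions and lower in MEPs (-0.29 ± 0.082) and CLPs (-0.50 ± 0.083). Ccnf (F cyclin) was higher in 4.

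Of 7 CDK inhibitors 5 were tested, and at most 2 were called higher and 3 lower in any fraction. Cdkn2c, which encodes the CDK4 and CDK6 inhibitor p18, rose in 7 of 8 fractions, from 7.27 to 27.4 CPM in HSCs (1.92 ± 0.12, log2 fold change and SE) and from 32.8 to 65.5 CPM in MPP1 (1.00 ± 0.10). It was not called in CLPs (-0.14 ± 0.092). Cdkn1a, which encodes p21, rose in HSCs (0.55 ± 0.13) and fell in MPP1 to MPP4 and in MEPs (-2.29 ± 0.22). Cdkn2a and Cdkn2b did not pass the filter on low counts. Of 8 CDK-activating kinase and Cdc25 phosphatase genes, a list that also holds the inhibitory kinases Wee1 and Pkmyt1, Pkmyt1 was called higher in 6 fractions (for MEPs 1.02 ± 0.12) and lower in CLPs, and at most 3 of the list were called higher and 3 lower in any fraction. Of 11 genes of cyclin turnover and stability, at most 3 were called in a direction in any fraction, and no gene in the same direction in 4 fractions. Of 8 mitogen inputs to D cyclins, at most 1 were called higher and 2 lower in any fraction. Mycn was lower in 4 fractions (for MPP4 -1.06 ± 0.19) and Foxo1 in 4 (for MEPs -1.39 ± 0.14).

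**Figure D5:**
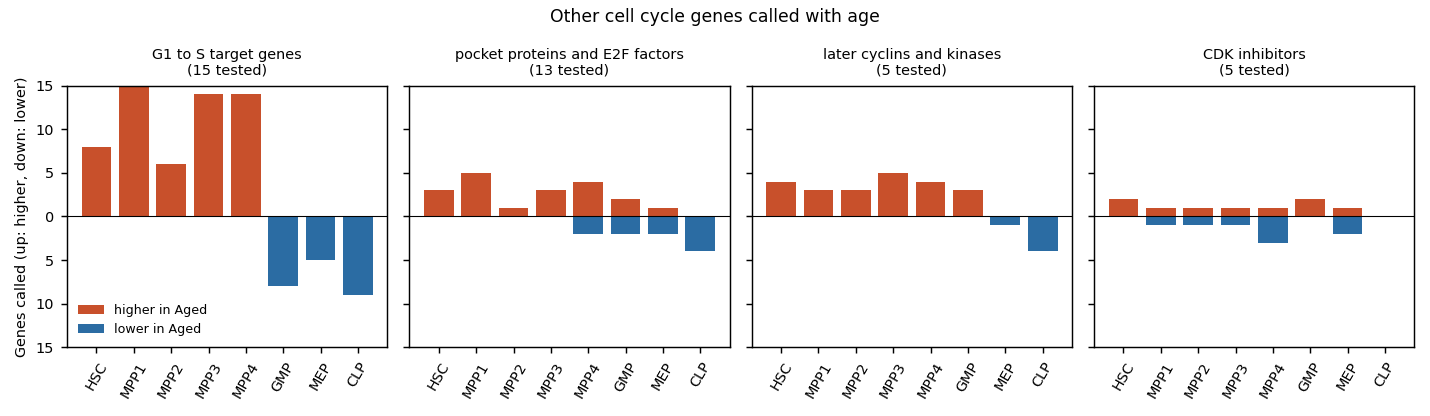
Number of genes of 4 cell cycle lists called higher (red, upward) or lower (blue, downward) in Aged cells in each fraction at an edgeR adjusted p under 0.01, members left out. The G1 to S target genes are called higher from HSC to MPP4 and lower in GMP, MEP and CLP.

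Across the 16 group means of log2 CPM, the members fell into patterns that are given as a description, since the points share fractions and ages. Cdk2 and Cdk6 had a Pearson r of 0.932, Ccne1 and Ccne2 0.900 and Cdk4 and Cdk6 0.847. For Ccnd2, r was -0.858 to Cdk4, -0.727 to Ccne1 and 0.045 to Ccnd3. Among 9571 genes averaging 10 CPM or more, the most similar to Cdk6 were Cdc45 (0.956), Cep128 (0.955) and Gins1 (0.954), and to Cdk2 Rnf168 (0.964), E2f1 (0.957) and Tube1 (0.953). The closest to Ccne1 were Slc20a1 and Gm5803 (both 0.986) and Ppm1g (0.984), and to Ccne2 Smarca5 (0.987), Rbmxl1 (0.985) and Cpsf6 (0.983). Cdk4 was closest to D19Bwg1357e (0.973), Rqcd1 (0.954) and Ddx39b (0.953). For Ccnd1 they were Rab33b (0.937), Sema4b (0.932) and Ctsl (0.916), for Ccnd2 Stx6 (0.947), Lrrc61 (0.935) and Insig1 (0.91), and for Ccnd3 Spib (0.948), Pkig (0.927) and Vpreb1 (0.924).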

How the data were processed

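RNA sequencing was performed by the authors on female C57BL/6 marrow fractions (32 libraries). Per their methods and processing notes, RNA was amplified with SMARTer Ultra Low Input chemistry and sequenced as single reads. Reads were aligned with TopHat2 2.0.13 and Bowtie2 2.1.0 to mm10 with an iGenomes annotation, and gene counts were taken from StringTie. The raw count table deposited by the authors holds whole-number counts without normalization or molecular identifiers. Their table of normalized values and their own comparison tables, with fold changes and p-values from DESeq2, were not used.

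Groups came from the labels. Counts were tested with the edgeR 4.0.16 quasi-likelihood F-test (R 4.3.3), TMM factors (0.807 to 1.11), filterByExpr over 16 groups and 1 mean per group on all 32 libraries (16 residual degrees of freedom). P-values were adjusted by Benjamini-Hochberg within each contrast over 14154 genes and genes under 0.01 were called. Tests were two-sided. Totals of 11237384 to 17723245 counts put the level of 3 counts at 0.169 to 0.267 CPM, for counting error alone. Ratios used counts plus 2. Scripts were tested on simulated data. The DESeq2 1.42.0 Wald test, DESeq2 size factors, library totals alone, no filter, a replicate block, fits of 4 libraries and leaving out each library were tried. Leaving out libraries for the ratios and the second gene length were chosen after seeing the data.

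The members and gene lists were chosen with earlier results of these data known. All 8 members were named, and from each other list up to 4 genes called with age at least 4 times in 1 direction, most fractions first, then largest mean absolute log2 fold change. For each member the 3 genes with the highest correlation over group means were named. Gene positions came from GENCODE M21 and promoters from RefSeq (GRCm38.p6). Promoters of Ccnd1, Ccnd2 and Ccne2 and protein sequences were not used here.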

Additional observations from a re-analysis of the deposited data

Results flagged for a closer look

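The age difference of a member differed between a restricted fraction and the mean of MPP1 to MPP4 in 18 tests, by the difference of the 2 age effects on the log2 scale in the edgeR fit. In GMPs the difference was -1.08 for Ccnd1, 0.82 for Ccnd2, -0.56 for Ccnd3, -0.37 for Cdk4, -1.41 for Ccne1 and -1.81 for Ccne2. In MEPs it was -0.85 for Ccnd3, -0.47 for Cdk6, -0.82 for Ccne1 and -1.37 for Ccne2. In CLPs it was 1.61 for Ccnd1, 0.75 for Ccnd2, -0.77 for Ccnd3, -0.58 for Cdk4, -0.84 for Cdk6, -1.24 for Ccne1, -0.97 for Ccne2 and -0.49 for Cdk2. The MPP libraries are shared by all of these. With 2 libraries a group, no library could be tested for its distance from the others of its group.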

How the results depend on the processing

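Of 28 called age differences, all 28 were kept with the DESeq2 Wald test and with the replicate block, 27 with DESeq2 size factors, 27 without the filter, 26 with library totals alone and 19 in fits of the 4 libraries of a fraction. In 17 the call was kept without any 1 library. With the DESeq2 Wald test, 5 members were called in CLPs and 1 differed between HSCs and MPPs. In fits of 4 libraries, which tested fewer samples, 0 members were called in HSCs, 3 in MPP4, 2 in GMPs and 1 in CLPs. The 9 calls lost there were those of Ccnd2, Cdk6 and Ccne1 in HSCs, Cdk2 in MPP3, Ccnd3 and Ccne2 in MPP4, Ccnd1 and Ccne1 in GMPs and Ccnd3 in CLPs. Without 1 library in turn, the members called with age numbered 0 to 2 in HSCs, 3 in MPP1, 1 to 2 in MPP2, 4 in MPP3, 3 to 5 in MPP4, 2 to 3 in GMPs, 2 to 3 in MEPs and 2 to 5 in CLPs, and 0 to 2 members differed between HSCs and MPPs.

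Differences that changed sign were all uncalled. In MEPs Ccne1 went to -0.0348 with the DESeq2 Wald test, -0.0348 with DESeq2 size factors, -0.0729 without the filter and -0.0132 in the fit of 4 libraries, and Cdk2 to -0.0312, -0.0308, -0.0696 and -0.00914. Without 1 library in turn, log2 fold changes ranged over -0.16 to 0.50 (Ccnd1), -0.14 to 0.20 (Ccnd3) and -0.0112 to 0.17 (Cdk4) in HSCs, -0.27 to 0.16 (Ccnd1) in MPP3, -0.00839 to 0.0445 (Cdk4) in GMPs, -0.0725 to 0.00367 (Ccne1) and -0.0748 to 0.0138 (Cdk2) in MEPs and -0.24 to 0.30 (Ccnd2) in CLPs. The cause was not tested.

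With the replicate block 3 members were called in CLPs, against 2 without it, the further one being Ccne2 (-0.41, edgeR adjusted p = 0.00795), and 5 members differed between MEPs and MPPs, against 4. Other counts were equal. Within a fraction, same-numbered Young and Aged libraries did not deviate together (correlations -0.056 to 0.07). Whether same-numbered libraries of different fractions share a source was not tested. Where 1 library was left out, the lone library of its group was assumed to vary like the others. With 2 libraries a group, low counts such as those of the E cyclins in HSCs limit precision.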
